A study of Mus musculus with 24 samples.

Results

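The genes described here are 32 genes of cholesterol synthesis and sterol control, out of 24043 genes in a table of RNA-seq levels from C2C12 cells. They comprise 19 enzymes that lead from acetyl-CoA towards cholesterol, 5 genes of the SREBP control system, 4 genes of sterol uptake, transport and receptor turnover, 2 exporters of the ABC family and 2 LXR receptors. The genes were picked by name from known pathway roles, with their levels in all 4 culture conditions already known, so the values below describe them and are not an independent test of the list. C2C12 is an established mouse myoblast line that proliferates in growth medium and fuses into myotubes in differentiation medium. The labels give 4 RNA-seq conditions with 2 biological replicates each, called A and B: growth medium (GM, DMEM with 10% fetal bovine serum) at 21% oxygen (normoxia) or 2% oxygen (hypoxia), and differentiation medium (DM, with 2% horse serum, insulin, transferrin and selenium) at the same oxygen levels. Fetal bovine and horse serum differ in kind as well as in amount, so serum, insulin and the change of cell state cannot be told apart in any comparison of the media. The days spent in differentiation medium and the hours of hypoxia are not given in the labels. The series holds 24 samples, and its 8 H3K27me3 chromatin libraries and 8 input libraries were not analysed here.

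Cholesterol is made in the cytosol and endoplasmic reticulum from acetyl-CoA through mevalonate, farnesyl diphosphate, squalene and lanosterol. The conversion of squalene and the later trimming of lanosterol need molecular oxygen, and the enzymes of these steps are encoded by Sqle, Cyp51, Msmo1 and Sc5d. SREBP2, the product of Srebf2, is the main activator of the pathway genes. Scap escorts SREBP out of the endoplasmic reticulum when sterols are low, and Insig1 and Insig2 hold it back when sterols are high. Insig1 is itself an SREBP target, whereas Insig2 is known as a gene that hypoxia-inducible factors can switch on. LXR receptors are activated by oxysterols and switch on sterol export through Abca1 and Abcg1, the ligase gene Mylip and Srebf1. Growing cells use cholesterol for new membrane, and fusing myoblasts remodel their plasma membrane.

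Levels are FPKM (fragments divided by transcript length and by the library total), a unit that allows a level to be compared between genes of different length. The 8 libraries summed to between 480018 and 534167 FPKM, and between 14917 and 15672 genes were above 0. Relative depth, read from the size of the smallest steps in low values, ran from 0.633 in hypoxic DM replicate B to 1 in hypoxic DM replicate A. The median log2 change of the 12389 genes tested was -0.20 for the move to DM (DM against GM) in normoxia, 0.07 for the move to DM in hypoxia, -0.14 for hypoxia in GM, 0.15 for hypoxia in DM and 0.27 for the interaction. The labelled cell state was checked on 9 myogenic markers. The determination factor Myod1 stood at 139 and 108 FPKM in normoxic GM, 25.1 and 26.1 in hypoxic GM, 180 and 172 in normoxic DM, and 6.95 and 11.8 in hypoxic DM. Their summed level was 6068 and 6126 FPKM in normoxic DM and 55.1 and 78.0 FPKM in hypoxic DM, where Actn2, a sarcomere gene, stood at 0.0496 and 0 FPKM. Hypoxic DM libraries are therefore described below by their medium and oxygen, not as myotubes. The 10 hypoxia markers summed to between 6820 and 8134 FPKM in the 4 hypoxic libraries and to between 1255 and 2221 FPKM in the 4 normoxic ones. Of the 6 adipocyte markers, Plin1 and Cidec were at 0 in every library, and the 6 summed to 10.9 and 10.5 (normoxic GM), 7.18 and 9.02 (hypoxic GM), 17.2 and 18.1 (normoxic DM) and 2.08 and 4.10 FPKM (hypoxic DM). The 5 osteoblast markers summed to at most 104 FPKM, mostly Bglap in normoxic DM, and Sp7, Ibsp and Alpl stayed under 0.3 FPKM throughout.

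The replicates of hypoxic DM stood apart from each other. In replicate B all 20 cell cycle markers were higher than in replicate A, with a median ratio of 5.17, and 17 of 18 tested cholesterol enzymes were higher, with a median ratio of 1.81. The median log2 difference between the replicates was 0.83 over the enzymes and 0.09 over all genes tested. In the other 3 conditions the median ratio of the enzymes between replicates was 0.969, 1.02 and 1.02. The hypoxia markers moved the other way, with a median ratio of 0.814 and 10 of 10 lower in replicate B. This was not particular to hypoxic DM. In normoxic DM their median ratio was 0.832, with 0 of 10 higher in replicate B. Counts of called enzymes, SREBP targets and genes of the whole list that rest on hypoxic DM are given with and without each of its libraries. The part of the cell cycle difference in them was not tested. RNA was taken from whole cultures, so fewer cells with a transcript and less transcript per cell cannot be told apart.

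Promoter sequence is shown for 5 genes whose levels carry the results below: Msmo1, the SREBP target with the largest change, Srebf1, the LXR target with the largest change, the paralogs Insig1 and Insig2, whose levels differed in pattern, and Srebf2, which was added after its motif match was seen. Sequences are from RefSeq on build GRCm38.p6 and cover the 250 bases before the most upstream start in that table, written 5′ to 3′ on the gene's own strand. Capitals mark matches to 3 motifs searched on both strands: TCACNCCA, a sterol response element form bound by SREBP, CCAAT, the NF-Y box that works beside it and is written ATTGG where it lies on the opposite strand, and CACGTG, an E-box.
Msmo1 (chr8:64733579-64733828, minus strand): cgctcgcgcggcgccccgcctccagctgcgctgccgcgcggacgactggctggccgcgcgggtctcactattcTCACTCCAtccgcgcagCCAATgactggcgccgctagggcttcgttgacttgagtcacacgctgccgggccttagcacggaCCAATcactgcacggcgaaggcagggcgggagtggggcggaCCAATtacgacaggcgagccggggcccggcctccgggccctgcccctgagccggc
Srebf2 (chr15:82147019-82147268, plus strand): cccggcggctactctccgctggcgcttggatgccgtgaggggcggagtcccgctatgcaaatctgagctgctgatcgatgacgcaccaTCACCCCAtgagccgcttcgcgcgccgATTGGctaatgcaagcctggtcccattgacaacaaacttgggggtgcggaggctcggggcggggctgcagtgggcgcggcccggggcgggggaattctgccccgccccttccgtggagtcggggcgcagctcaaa
Insig1 (chr5:28071162-28071411, plus strand): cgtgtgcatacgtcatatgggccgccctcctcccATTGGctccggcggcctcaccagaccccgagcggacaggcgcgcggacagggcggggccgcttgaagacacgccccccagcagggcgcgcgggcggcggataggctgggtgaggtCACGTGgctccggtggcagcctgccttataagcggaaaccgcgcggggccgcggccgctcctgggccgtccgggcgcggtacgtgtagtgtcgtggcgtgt
Insig2 (chr1:121332590-121332839, minus strand): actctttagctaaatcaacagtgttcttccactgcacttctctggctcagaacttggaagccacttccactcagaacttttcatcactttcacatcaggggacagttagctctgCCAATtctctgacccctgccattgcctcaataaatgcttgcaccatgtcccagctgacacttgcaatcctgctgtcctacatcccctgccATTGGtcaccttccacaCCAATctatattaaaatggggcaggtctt
Srebf1 (chr11:60222582-60222831, minus strand): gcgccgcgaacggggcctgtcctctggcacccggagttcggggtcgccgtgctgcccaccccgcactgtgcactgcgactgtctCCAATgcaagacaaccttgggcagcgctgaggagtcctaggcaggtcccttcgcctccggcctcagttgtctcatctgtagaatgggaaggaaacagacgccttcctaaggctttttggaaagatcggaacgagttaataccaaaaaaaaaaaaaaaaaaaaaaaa
Both Insig2 and Srebf1 have 3 starts in the table, and only the most upstream one is shown.

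The RefSeq promoter table held 26 of the 32 genes, among them 16 of the 19 enzymes. TCACNCCA occurred in the promoters of Msmo1, Srebf2 and Hmgcs1, which is 3 of 26 genes, and in 3.59% of the 27025 promoters of the table. CCAAT occurred in 14 of 16 enzyme promoters and in 20 of 26 promoters of the whole list, beside 34.5% of all promoters. Msmo1 carried the sterol response type motif at bases -177 to -170 from its start and CCAAT at 3 places between -160 and -51. Srebf2 carried the sterol response type motif at -162 to -155 and a CCAAT on the other strand at -135 to -131. Insig1 held the E-box at -101 to -96, and CACGTG was also found at Abca1, Hsd17b7 and Sc5d, against 6.04% of all promoters. These letters describe the windows shown and do not mark tested binding sites.

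Most enzymes of cholesterol synthesis were lowest in hypoxic GM and highest in hypoxic DM. The summed level of the 19 enzymes was 295 and 283 FPKM in normoxic GM, 93.6 and 94.0 in hypoxic GM, 276 and 281 in normoxic DM, and 920 and 1547 in hypoxic DM. The sums of the normoxic media lay close together, with the hypoxic libraries below them in GM and above them in DM. Of the 19 enzymes 18 were tested, since testing asked for a mean of 1 FPKM or more in 1 or more conditions. Hmgcs1, the gene of HMG-CoA synthase, was listed at 0 in all 8 libraries, as 1 of 6129 such genes of the table, and no level or change can be read for it.

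**Figure D1:**
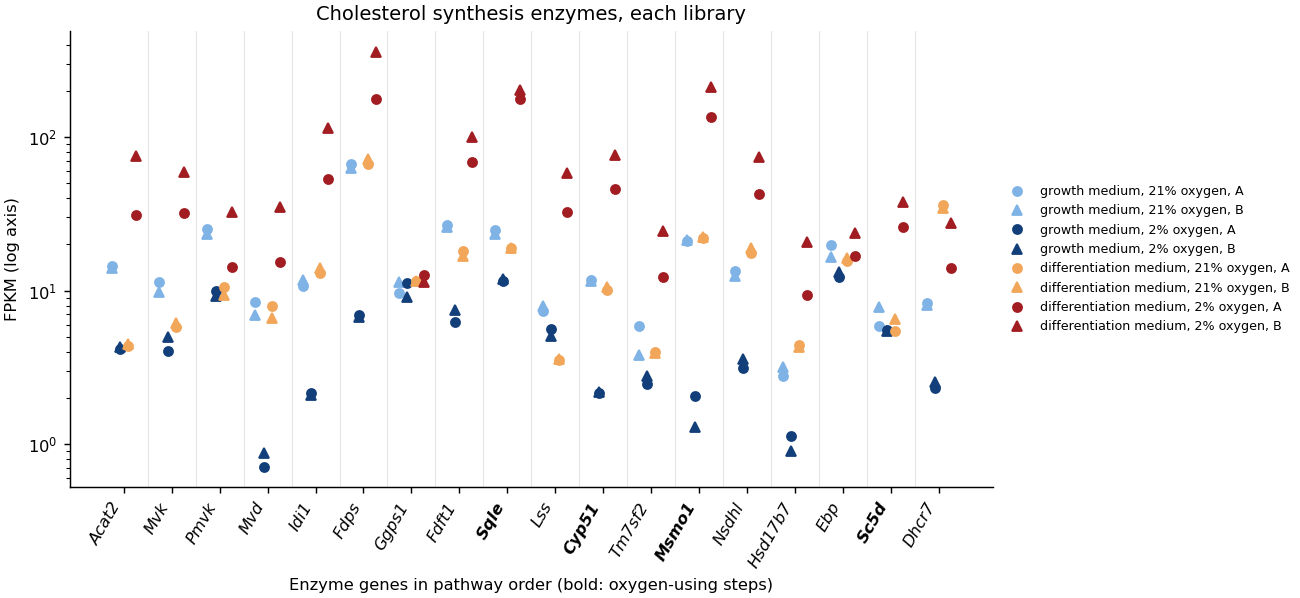
Level in FPKM (log axis) of each of the 18 tested enzymes in pathway order, with 1 point per library (circles for replicate A, triangles for replicate B), 1 colour per condition and the oxygen-using enzymes in bold. In 14 of 18 enzymes both hypoxic DM libraries lie above the other 6 libraries, and in 14 of 18 both hypoxic GM libraries lie below the other 6.

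In GM, hypoxia lowered most of the pathway. The enzymes called lower at an adjusted p under 0.05 were 13 of 18, with none called higher, beside 28% of all genes tested called lower and 13.5% called higher (41.4% in either direction). Their median change on the log2(FPKM + 1) scale was -1.34, against -0.14 over all genes tested. Fdps, the farnesyl diphosphate synthase gene, went from 67.3 and 63.2 FPKM in normoxic GM to 6.92 and 6.72 FPKM in hypoxic GM. This is a level 9.56-fold lower, with a log2 change of -3.08 ± 0.29 (SE, n = 2 libraries per condition) and a limma adjusted p of 4.09e-04. Each SE comes from a spread pooled over all conditions, hypoxic DM included. Msmo1, which encodes the methylsterol oxidase that acts after the Cyp51 step, went from 21.0 and 21.3 FPKM to 2.06 and 1.30 FPKM, a level 12.6-fold lower (log2 change -3.06 ± 0.22, adjusted p = 1.79e-04). In both genes the conditions were separated by far more than the distance between replicates. Mvd, the mevalonate diphosphate decarboxylase gene, went from 8.39 and 6.96 FPKM to 0.715 and 0.876 FPKM (log2 change -2.27 ± 0.34, adjusted p = 0.00247). The 5 enzymes not called were Ggps1, Lss, Tm7sf2, Ebp and Sc5d. Of the 13 calls, those of Acat2, Mvk, Pmvk and Hsd17b7 were lost when any single GM library was left out, and that of Hsd17b7 also without either normoxic DM library, with adjusted p between 0.0508 and 0.175.

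In DM, hypoxia raised the pathway instead. Of 18 enzymes 15 were called higher and 1 lower, beside 37.5% and 27.7% of all genes tested (65.2% in either direction), with a median log2 change of 2.04 against 0.15 over all genes. The median was 2.41 without hypoxic DM replicate A and 1.67 without replicate B, with 16 and 15 enzymes called higher. Lss encodes the synthase that closes squalene epoxide to lanosterol. Its level was 3.53 and 3.61 FPKM in normoxic DM and 32.6 and 58.3 FPKM in hypoxic DM, a mean 12.7-fold higher (log2 change 3.29 ± 0.24, adjusted p = 4.16e-05). Acat2, the cytosolic thiolase at the entrance of the pathway, had 4.33 and 4.52 FPKM in normoxic DM and 31.3 and 75.7 FPKM in hypoxic DM (12.1-fold higher, log2 change 3.20 ± 0.35, adjusted p = 2.56e-04). The distance between the hypoxic DM replicates of Acat2 was wide, yet neither library came near the normoxic values. The exception was Dhcr7, the reductase of the last step, at 36.0 and 34.3 FPKM in normoxic DM and 14.2 and 27.7 FPKM in hypoxic DM (log2 change -0.79 ± 0.27, adjusted p = 0.0355). This call for Dhcr7 was lost in each fit without a GM or a normoxic DM library, with adjusted p between 0.059 and 0.141. Pmvk, the phosphomevalonate kinase gene, was called higher with 10.6 and 9.45 FPKM in normoxic DM and 14.3 and 32.4 FPKM in hypoxic DM. The Pmvk call was lost without normoxic DM replicate A or B, or without normoxic GM replicate A, with adjusted p between 0.0507 and 0.128.

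Differentiation medium at 21% oxygen changed the enzymes little and in mixed directions. Of 18 enzymes 1 was called higher and 6 lower, beside 25.5% and 41% of all genes tested (66.5% in either direction), and their median log2 change of -0.16 was near the -0.20 of all genes. After median-of-ratios scaling of the libraries 2 were called higher and 3 lower. Dhcr7 rose from 8.27 and 8.07 FPKM in normoxic GM to 36.0 and 34.3 FPKM in normoxic DM, 4.31-fold (log2 change 1.98 ± 0.27, adjusted p = 6.54e-04). Acat2 fell from 14.46 and 14.05 FPKM to 4.33 and 4.52 FPKM (log2 change -1.49 ± 0.35, adjusted p = 0.00867). Without normoxic DM replicate A the Acat2 call was lost, at an adjusted p of 0.0519. The other enzymes called lower were Mvk, Pmvk, Fdft1, Sqle and Lss, and each of these calls was lost in 3 or more of the fits that left out a library. Of these, Mvk was not called without either library of normoxic GM, hypoxic GM or normoxic DM. Calls for Pmvk, Fdft1 and Lss were lost without either library of normoxic GM or normoxic DM, and Sqle lost its call without either normoxic DM library or normoxic GM replicate A. The adjusted p of these lost calls ran from 0.0513 to 0.169.

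At 2% oxygen the same change of medium raised nearly the whole pathway. Of 18 enzymes 17 were called higher and none lower, beside 23.3% and 17.6% of all genes tested (40.9% in either direction), with a median log2 change of 3.14. It was 3.57 without hypoxic DM replicate A and 2.62 without replicate B, with 17 of 18 called higher both times. Msmo1 showed the largest change, from 2.06 and 1.30 FPKM in hypoxic GM to 136 and 213 FPKM in hypoxic DM, a mean 104-fold higher (log2 change 6.01 ± 0.22, adjusted p = 5.03e-05). Fdps stood at 177 and 359 FPKM in hypoxic DM, which is 39.3-fold above hypoxic GM (log2 change 5.02 ± 0.29, adjusted p = 2.11e-04). Idi1, the isomerase that readies isoprene units for chain building, stood at 2.14 and 2.08 FPKM in hypoxic GM and at 53.4 and 115 FPKM in hypoxic DM (39.97-fold, log2 change 4.68 ± 0.31, adjusted p = 2.74e-04). The comparison starts from the condition in which most enzymes were lowest and ends in the one in which most were highest. For Msmo1 and Idi1 the levels in hypoxic DM also lay above those of normoxic GM, at 21.0 and 21.3 FPKM for Msmo1 and 10.7 and 11.7 FPKM for Idi1. The weaker calls of Pmvk and Ebp were lost without either library of normoxic DM or hypoxic GM, and Pmvk also without either normoxic GM library, with adjusted p between 0.0576 and 0.141.

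The interaction contrast, which is the change with DM in hypoxia minus that in normoxia, was called higher for 16 of 18 enzymes and lower for none, beside 35.4% and 18.7% of all genes tested (54.1% in either direction). Without hypoxic DM replicate A or B it was called higher for 17 or 16. Its largest values among the enzymes were those of Msmo1 (5.95 ± 0.31, adjusted p = 2.40e-05), Fdps (4.93 ± 0.41, adjusted p = 1.46e-04) and Acat2 (4.74 ± 0.50, adjusted p = 3.84e-04). The enzymes not called were Ggps1 and Dhcr7. Ebp, the sterol isomerase gene, had 20.0 and 16.6 FPKM in normoxic GM, 12.3 and 13.2 in hypoxic GM, 15.6 and 16.3 in normoxic DM and 16.9 and 23.8 in hypoxic DM. Its interaction of 0.80 lost its call after median-of-ratios scaling and without normoxic GM replicate A or either library of hypoxic GM or normoxic DM, with adjusted p between 0.0615 and 0.0901. A fall with hypoxia in GM together with a rise in DM, both called, was seen in 12 of 18 enzymes and in 7.38% of all genes tested. Both hypoxic DM libraries were above the other 6 in 14 of 18 enzymes and in 14.8% of all genes. Both hypoxic GM libraries were below the other 6 in 14 of 18 enzymes and in 16.5% of all genes.

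Within the enzymes, Ggps1 stood apart. It encodes geranylgeranyl diphosphate synthase, which leaves the sterol route for protein prenylation. Its 8 values ran from 9.07 to 12.6 FPKM, the oxygen levels overlapped in each medium and no contrast was called. In each oxygen level its GM values lay below its DM values. All other tested enzymes from Acat2 to Fdft1 were lowest in hypoxic GM by their means, and all of them except Pmvk were highest in hypoxic DM. Mvk, mevalonate kinase, had 11.4 and 9.85 FPKM in normoxic GM, 4.03 and 4.97 in hypoxic GM, 5.77 and 6.12 in normoxic DM, and 32.3 and 58.9 in hypoxic DM. Fdft1, squalene synthase, had 26.9 and 25.9, then 6.30 and 7.50, then 18.04 and 16.88, then 69.1 and 100.04 FPKM in the same order of conditions. In both genes the 4 conditions did not overlap. After lanosterol, Nsdhl and Hsd17b7, which complete the removal of methyl groups, and the reductase gene Tm7sf2 ran from means of 3.38, 1.02 and 2.62 FPKM in hypoxic GM to 58.3, 15.1 and 18.3 FPKM in hypoxic DM. Normoxic GM and normoxic DM were 12.9 and 18.3 FPKM for Nsdhl, 3.00 and 4.39 FPKM for Hsd17b7 and 4.86 and 3.94 FPKM for Tm7sf2. Dhcr7 had another order, which from high to low was normoxic DM, hypoxic DM, normoxic GM and hypoxic GM.

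The 4 enzymes that consume molecular oxygen were set beside the other enzymes. Sqle, squalene epoxidase, had 24.9 and 23.5 FPKM in normoxic GM, 11.58 and 12.01 in hypoxic GM, 18.9 and 19.0 in normoxic DM, and 178 and 203 in hypoxic DM. The hypoxic DM libraries were 10.0-fold above normoxic DM (log2 change 3.26 ± 0.09, adjusted p = 5.15e-07), and Sqle had the smallest distance between the 2 hypoxic DM replicates of the enzymes called there, at a ratio of 1.14. Cyp51, the lanosterol demethylase of the cytochrome P450 family, had 11.7 FPKM in both normoxic GM libraries, 2.17 and 2.19 in hypoxic GM, 10.1 and 10.6 in normoxic DM, and 45.8 and 76.3 in hypoxic DM. Its change with hypoxia was -1.998 ± 0.214 in GM (adjusted p = 6.83e-04) and 2.40 ± 0.21 in DM (adjusted p = 9.66e-05). Cyp51 thus moved in opposite directions in the media, as did Sqle and Msmo1. Sc5d, the sterol desaturase of a late step, had 5.92 and 7.80, then 5.56 and 5.49, then 5.43 and 6.57, then 25.9 and 37.7 FPKM in the same order. Sc5d was called only where hypoxic DM was compared, at 2.21 ± 0.20 against normoxic DM (adjusted p = 1.09e-04) and 2.31 ± 0.20 against hypoxic GM (adjusted p = 5.67e-04), and its values in the other 3 conditions lay between 5.43 and 7.80 FPKM.

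**Figure D2:**
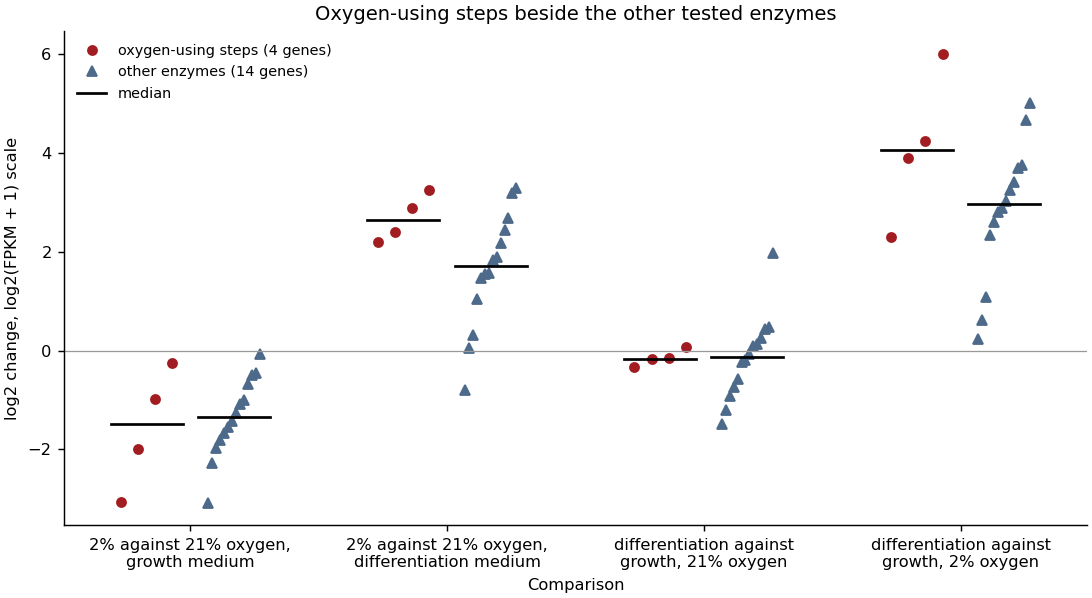
Log2 change of each of the 18 tested enzymes, on the log2(FPKM + 1) scale, in 4 comparisons, with the 4 oxygen-using enzymes as circles, the 14 others as triangles and lines at the medians. With hypoxia the medians are -1.49 and -1.34 in GM and 2.64 and 1.71 in DM, and the 2 sets of points overlap in each comparison.

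The medians of the oxygen-using and the other enzymes were -1.49 and -1.34 with hypoxia in GM, and 2.64 and 1.71 with hypoxia in DM. In GM 3 of 4 oxygen-using enzymes and 10 of 14 others were called lower, beside 28% of all genes tested. In DM 4 of 4 and 11 of 14 were called higher, beside 37.5% of all genes tested. For the move to DM in hypoxia the medians were 4.07 and 2.96, and for the interaction 4.32 and 3.49. The medians with hypoxia in DM were 2.98 and 2.23 without hypoxic DM replicate A and 2.30 and 1.26 without replicate B. In DM the changes of the 4 ran from 2.21 to 3.26, a range that also held Acat2 at 3.20, Mvk at 2.68 and Idi1 at 2.45, with Lss just above it at 3.29 and Fdft1 just below it at 2.19. No difference between the 2 groups of enzymes was tested, and with 4 genes the medians are a description.

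The genes of the SREBP control system showed 2 kinds of pattern. Srebf2 encodes the main activator of the enzymes and had 103 and 91.9 FPKM in normoxic GM, 22.9 and 24.7 in hypoxic GM, 48.4 and 46.8 in normoxic DM, and 130.02 and 154 in hypoxic DM. The 4 conditions did not overlap, and the replicates of each lay close together, also in hypoxic DM. Its changes were -1.99 ± 0.10 with hypoxia in GM (adjusted p = 6.19e-05), 1.55 ± 0.10 with hypoxia in DM (adjusted p = 2.73e-05) and 3.54 ± 0.15 for the interaction (adjusted p = 9.18e-06). In normoxia Srebf2 fell with the move to DM by 1.01 on the log2 scale (adjusted p = 1.86e-04). The summed enzyme level stayed between 276 and 295 FPKM, but within it Dhcr7 rose from a mean of 8.17 to 35.2 FPKM. Of 18 tested enzymes 6 were called lower in this comparison and 1, Dhcr7, higher, beside 41% and 25.5% of all genes tested. Insig1, the SREBP-induced retention protein, had 32.2 and 34.9, then 4.73 and 5.07, then 6.404 and 7.347, then 54.4 and 76.3 FPKM in the same order. Insig1 was low in hypoxic GM and in normoxic DM, and the second of these is where it parted from most enzymes. Its changes were -2.13 ± 0.16 for the move to DM in normoxia (adjusted p = 4.79e-05), -2.55 ± 0.16 with hypoxia in GM (adjusted p = 1.10e-04), 3.06 ± 0.16 with hypoxia in DM (adjusted p = 9.55e-06) and 5.61 ± 0.23 for the interaction (adjusted p = 8.28e-06).

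For Insig2, the paralog of Insig1, the libraries divided by oxygen in both media. It had 34.2 and 36.6 FPKM in normoxic GM, 77.7 and 76.0 in hypoxic GM, 32.1 and 27.6 in normoxic DM, and 85.5 and 68.4 in hypoxic DM. The 4 hypoxic libraries lay above the 4 normoxic ones, and the media overlapped within hypoxia. Insig2 was the 1 gene of the 30 tested that was called higher with hypoxia in GM, at 1.10 ± 0.12 (adjusted p = 8.55e-04), and it was also called higher in DM, at 1.33 ± 0.12 (adjusted p = 1.22e-04). Its interaction of 0.23 ± 0.18 missed the threshold (adjusted p = 0.299), and neither change of medium was called. In hypoxic GM the mean level of Insig2 was 76.9 ± 1.18 FPKM (SD, n = 2) and that of Insig1 4.90 ± 0.24, while in normoxic GM they were 35.4 ± 1.71 and 33.6 ± 1.89.

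Srebf1, which encodes the SREBP better known for fatty acid synthesis and is also an LXR target, had 52.6 and 44.8 FPKM in normoxic GM, 21.9 and 24.4 in hypoxic GM, 12.1 and 13.1 in normoxic DM, and 38.8 and 44.6 in hypoxic DM. It was lowest in normoxic DM, not in hypoxic GM, and its hypoxic DM values did not exceed those of normoxic GM. The fall with the move to DM in normoxia was -1.86 ± 0.12 (adjusted p = 2.12e-05), and the rise with hypoxia in DM was 1.65 ± 0.12 (adjusted p = 3.43e-05). Scap, the sterol-sensing escort, varied less. It ranged from 9.64 and 10.2 FPKM in normoxic DM to 16.1 and 21.4 FPKM in hypoxic DM, with 18.3 and 14.95 in normoxic GM and 14.9 and 15.5 in hypoxic GM. Scap was called lower with the move to DM in normoxia (log2 change -0.68 ± 0.15, adjusted p = 0.00667) and higher with hypoxia in DM (0.84 ± 0.15, adjusted p = 0.00258), and the other 3 conditions lay between 14.9 and 21.4 FPKM.

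**Figure D3:**
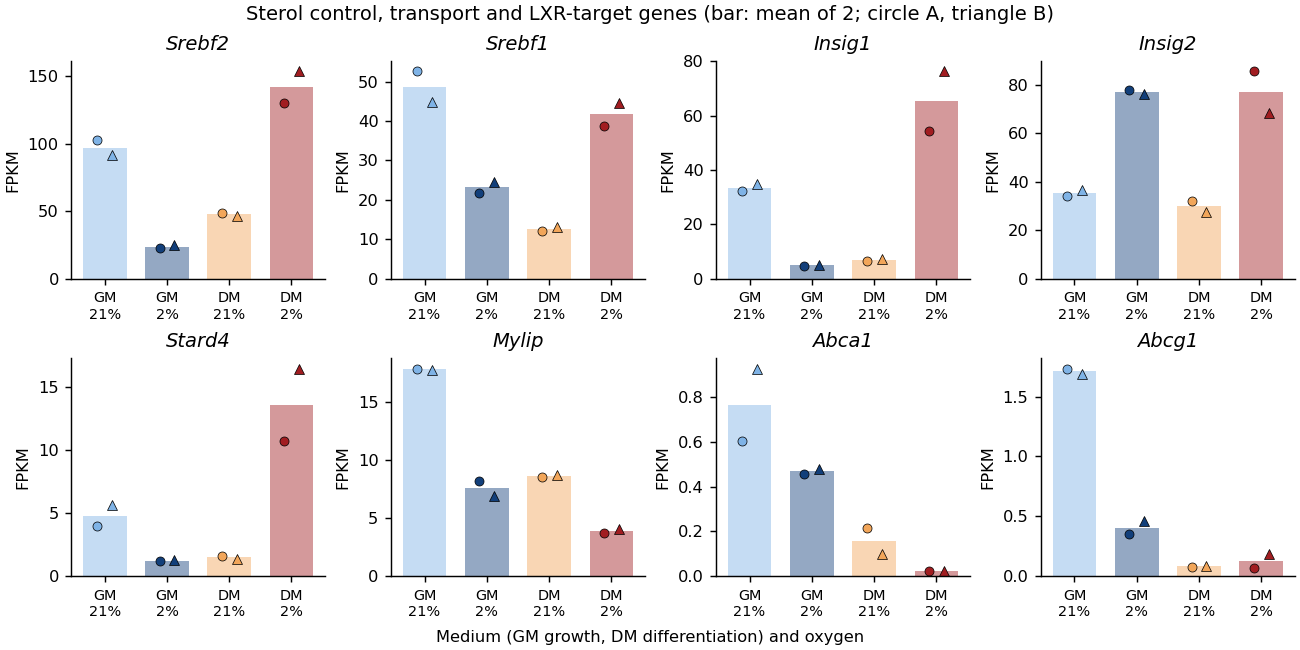
Level in FPKM of 8 genes (Srebf2, Srebf1, Insig1, Insig2, Stard4, Mylip, Abca1 and Abcg1) in GM and DM at 21% and 2% oxygen, with bars at the mean of 2 libraries and points for replicates A (circles) and B (triangles). Srebf2 and Insig1 are lowest in hypoxic GM and highest in hypoxic DM, Insig2 is high in the 4 hypoxic libraries, and Mylip is lowest in hypoxic DM.

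Among the genes of sterol handling, Stard4 followed the enzymes. It encodes a cytosolic sterol carrier and had 3.97 and 5.63 FPKM in normoxic GM, 1.15 and 1.25 in hypoxic GM, 1.59 and 1.37 in normoxic DM, and 10.7 and 16.5 in hypoxic DM. Its changes were -1.38 ± 0.22 with hypoxia in GM (adjusted p = 0.00318), 2.53 ± 0.22 with hypoxia in DM (adjusted p = 8.48e-05) and 3.91 ± 0.31 for the interaction (adjusted p = 1.24e-04). As with Insig1, both hypoxic GM and normoxic DM were low. Npc1 and Npc2 encode the proteins that move cholesterol out of lysosomes. Npc1 had 9.82 and 9.95, then 9.56 and 11.1, then 7.52 and 7.37, then 13.8 and 14.4 FPKM in the same order of conditions. It rose with hypoxia in DM (0.84 ± 0.10, adjusted p = 3.33e-04) but its values in normoxic and hypoxic GM overlapped. Npc1 was also called lower with the move to DM in normoxia and higher with the move to DM in hypoxia. The first Npc1 call was lost under both alternative scalings and without normoxic DM replicate A or B or normoxic GM replicate B, with adjusted p between 0.0512 and 0.342, and the second without hypoxic GM replicate A (adjusted p = 0.108) and with only the libraries compared (adjusted p = 0.066). Npc2 had 145 and 126, then 99.8 and 104, then 49.9 and 50.2, then 97.9 and 91.2 FPKM. Its main feature was the low level in normoxic DM, a change of -1.42 ± 0.09 against normoxic GM (adjusted p = 2.13e-05), and its call of -0.40 with hypoxia in GM was lost under both alternative scalings and without either hypoxic GM library (adjusted p between 0.0525 and 0.145).

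The LXR targets did not share 1 pattern. Mylip encodes a ubiquitin ligase that marks lipoprotein receptors for breakdown. It had 17.9 and 17.8 FPKM in normoxic GM, 8.20 and 6.89 in hypoxic GM, 8.54 and 8.70 in normoxic DM, and 3.73 and 4.09 in hypoxic DM. Mylip fell with hypoxia in GM by 1.14 (adjusted p = 4.05e-04) and in DM by 0.97 (adjusted p = 2.53e-04), and it fell with the move to DM by 0.97 in normoxia (adjusted p = 2.54e-04) and by 0.80 in hypoxia (adjusted p = 0.00209), each with an SE of 0.11 on the log2 scale. It was highest in normoxic GM and lowest in hypoxic DM, and its interaction of 0.17 ± 0.15 missed the threshold (adjusted p = 0.362). Abcg1, a sterol exporter, had 1.73 and 1.69 FPKM in normoxic GM, 0.353 and 0.456 in hypoxic GM, 0.0786 and 0.0806 in normoxic DM, and 0.0690 and 0.182 in hypoxic DM. Abcg1 was tested only because of its level in normoxic GM, so its falls from that condition were favoured by the filter, and fitted changes understate ratios at such levels. Its change with hypoxia in GM was -0.95 ± 0.09 (adjusted p = 4.78e-04) and its change with the move to DM in normoxia was -1.33 ± 0.09 (adjusted p = 3.23e-05). Its small fall with the move to DM in hypoxia (-0.32 ± 0.09, adjusted p = 0.032) was lost without hypoxic DM replicate A or either hypoxic GM library, with adjusted p between 0.0555 and 0.158.

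Abca1, the exporter that loads cholesterol onto apolipoproteins, was below the filter and was not tested. Its levels were 0.604 and 0.928 FPKM in normoxic GM, 0.457 and 0.479 in hypoxic GM, 0.213 and 0.0999 in normoxic DM, and 0.0214 and 0.0203 in hypoxic DM. If the smallest step shared by its values is 1 fragment, these levels are 98 and 195, 95 and 94, 34 and 20, and 5 and 3 fragments. In hypoxic DM the gene was thus near the limit of detection, and no fold is given. Of the LXR receptors, Nr1h2 had 54.1 and 42.3 FPKM in normoxic GM, 48.2 and 52.3 in hypoxic GM, 26.4 and 23.8 in normoxic DM, and 55.6 and 55.2 in hypoxic DM. Nr1h2 was thus lowest in normoxic DM, with changes of -0.91 ± 0.12 against normoxic GM (adjusted p = 7.27e-04) and 1.11 ± 0.12 from normoxic to hypoxic DM (adjusted p = 2.82e-04). Nr1h3, the other receptor, lay between 0.639 and 1.499 FPKM in all 8 libraries. It was tested only because of its levels in normoxic GM and normoxic DM, so falls with hypoxia were favoured by the filter. Its fall with hypoxia in DM (-0.45 ± 0.15, adjusted p = 0.0322) was lost without either hypoxic DM library, either hypoxic GM library or normoxic DM replicate B, with adjusted p between 0.051 and 0.152.

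SREBP targets and LXR targets were then set side by side. The SREBP list is the 19 enzymes with Srebf2, Insig1, Stard4 and Npc1, and 22 of its 23 genes were tested. The LXR list is Abca1, Abcg1, Mylip and Srebf1, and 3 of its 4 genes were tested. Of all genes tested, 13.5% were called higher and 28% lower with hypoxia in GM, and 37.5% and 27.7% with hypoxia in DM. For the move to DM these shares were 23.3% and 17.6% in hypoxia and 25.5% and 41% in normoxia. With hypoxia in GM 16 of 22 SREBP targets and 3 of 3 LXR targets were called lower, with medians of -1.40 and -1.04. Abcg1, tested only through its level in normoxic GM, is 1 of these 3, and its fall was favoured by the filter. With hypoxia in DM 19 of 22 SREBP targets were called higher and 1 lower, with a median of 2.04. Without hypoxic DM replicate A or B 20 or 19 were called higher. Of the 3 LXR targets 1 was called higher (Srebf1) and 1 lower (Mylip), with a median of 0.06. For the move to DM in hypoxia 21 of 22 SREBP targets were called higher, against 1 higher and 2 lower of 3 LXR targets, and the 21 stayed 21 without either hypoxic DM library. For the move to DM in normoxia 10 of 22 SREBP targets were called lower and 1 higher. Their median of -0.20 was the same as that over all genes tested. After median-of-ratios scaling 6 were called lower and 2 higher, with a median of 0.04. Of the LXR targets 3 of 3 were called lower, again with Abcg1 among them. Both hypoxic DM libraries exceeded the other 6 in 18 of 22 SREBP targets and in 0 of 3 LXR targets. The share over all genes tested was 14.8%. The difference between the lists was not tested, and Srebf1 also answers to SREBP and insulin signalling.

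**Figure D4:**
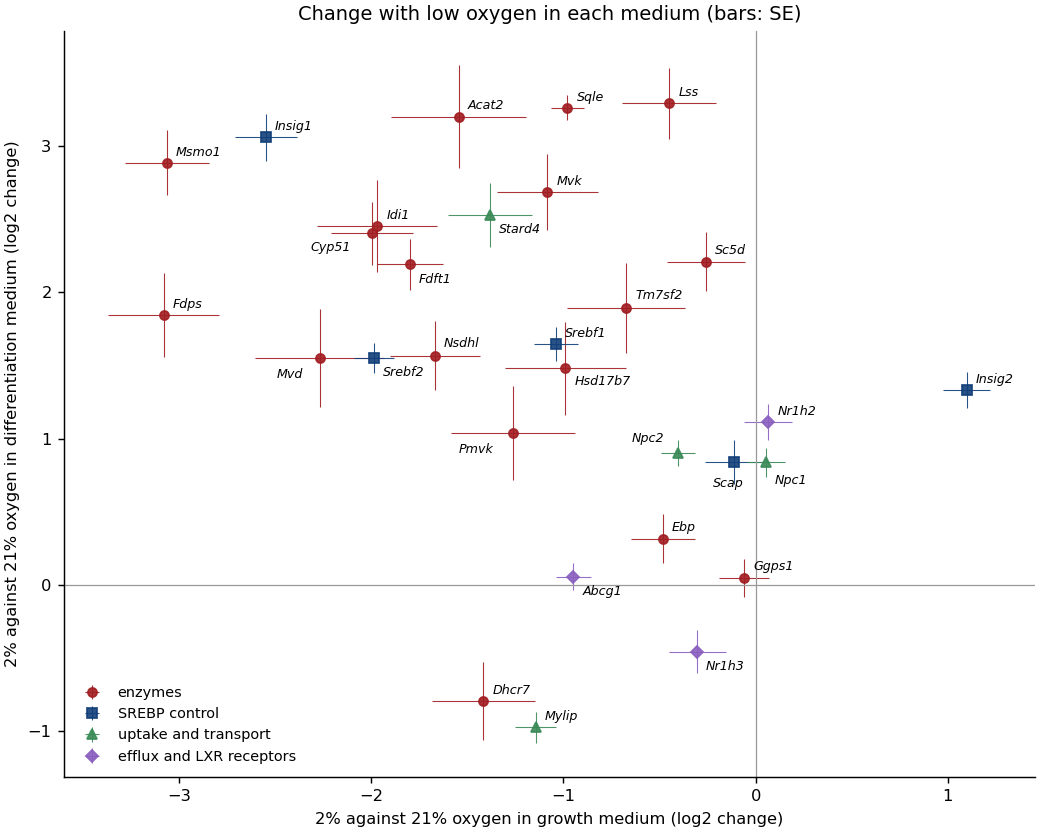
Log2 change with hypoxia in GM (horizontal) against that in DM (vertical) for the 30 tested genes, coloured by role, with bars of 1 SE and lines at 0. Most enzymes, with Srebf2, Insig1 and Stard4, lie in the upper left (lower in GM, higher in DM), Insig2 is right of 0 and above 0, and Mylip is below 0 on both axes.

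Over all 30 tested genes, 1 was called higher and 20 lower with hypoxia in GM, and 24 higher and 3 lower with hypoxia in DM. Abcg1 is among the 20 and Nr1h3 among the 3, and both falls were favoured by the filter. The 20 became 19 after median-of-ratios or upper-quartile scaling and 23 with only the libraries compared. Fewer genes were called lower with hypoxia in GM in each fit without a GM or a normoxic DM library. More were called lower there in each fit without a hypoxic DM library. The 24 became 25 without hypoxic DM replicate A and stayed 24 without replicate B. For the move to DM the counts were 1 higher and 16 lower in normoxia and 22 higher and 2 lower in hypoxia, and the interaction was called higher for 25 and lower for 0. Abcg1 is also among the 16 and the 25, and the filter favoured both calls through its level in normoxic GM. Without hypoxic DM replicate A or B the 22 became 23 or stayed 22, and the 25 became 26 both times. Without normoxic DM replicate A or B the 16 became 9 or 10, and without hypoxic DM replicate A or B the 1 called higher became 4. The 2 called lower became 1 without hypoxic DM replicate A or either hypoxic GM library. The 3 called lower with hypoxia in DM became 1 without normoxic DM replicate B or either hypoxic GM library. These counts are to be read beside the shares of all genes given above, which were large in each contrast. A called fall in GM together with a called rise in DM was seen in 17 of 30 genes and in 7.38% of all genes tested. The 17 were 12 enzymes, Srebf1, Srebf2, Insig1, Stard4 and Npc2. The contrasts share libraries with each other, so their values are not independent.

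Other genes of sterol biology were taken from lists of known roles. The shares of all genes tested that were called higher and lower were 13.5% and 28% with hypoxia in GM, and 37.5% and 27.7% with hypoxia in DM. Among 14 genes of the prenyl and dolichol branches, which use the same isoprene precursors, 2 were called higher and 1 lower with hypoxia in GM, and 9 higher and 1 lower with hypoxia in DM. The 1 called lower in DM was Rabggtb, a subunit of Rab geranylgeranyl transferase, with a log2 change of -1.19 (adjusted p = 4.48e-05). Their median change with hypoxia in DM was 0.56, against 1.71 for the enzymes that do not use oxygen. Among 14 genes of SREBP processing and sterol-dependent degradation, 3 were called higher and 3 lower with hypoxia in GM, and 7 higher and 5 lower in DM. Their largest change with hypoxia in DM was that of Rnf145, a ubiquitin ligase gene, at 1.83 (adjusted p = 7.56e-05), after a change of -1.78 with the move to DM in normoxia (adjusted p = 8.61e-05). Mbtps1, the protease that makes the first cut in SREBP, had the largest interaction of that list, at 1.57 (adjusted p = 4.28e-04).

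Of 18 genes of sterol transport and storage 17 were tested, and 2 were called higher and 0 lower with hypoxia in GM, and 8 higher and 4 lower in DM. The 12 of 17 called in DM are to be read beside 65.2% of all genes tested, and the 2 of 17 in GM beside 41.4%. Vldlr, a lipoprotein receptor, had the largest change with hypoxia in GM, at 2.70 (adjusted p = 1.10e-04), and Cav1, the caveolin of cholesterol-rich membrane pits, the largest with hypoxia in DM, at 2.65 (adjusted p = 9.42e-06). Among 8 tested genes of other sterol enzymes, 3 were called lower with hypoxia in GM and 3 higher and 2 lower in DM. Acly, which supplies cytosolic acetyl-CoA to the pathway, changed by -0.82 in GM (adjusted p = 0.0152) and by 2.54 in DM (adjusted p = 4.75e-05), with an interaction of 3.36 (adjusted p = 1.40e-04). Of 5 further LXR targets tested, 1 was called higher and 1 lower with hypoxia in GM, and 1 higher and 4 lower in DM. Lpcat3, a phospholipid acyltransferase gene, changed by -1.83 with hypoxia in GM (adjusted p = 3.06e-04). Abca5, an ABC transporter gene, changed by -1.53 with hypoxia in DM (adjusted p = 2.70e-04). Acly and most enzymes thus fell with hypoxia in GM and rose with it in DM, whereas Vldlr, the largest change of its list in GM, rose there.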

How the data were processed

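RNA-seq was measured in 8 C2C12 libraries, stranded and made from total RNA per the labels. The authors deposited FPKM values for 24043 genes. The submitters' processing notes name STAR 2.5.1b, Cufflinks 2.2.1 and build mm9, with no role given, and use of strand in counting is not given in the sources used here. Genes whose mean reached 1 FPKM in any group (12389) were fitted as log2(FPKM + 1) with limma 3.58.1 (R 4.3.3), with 4 group means, an intensity trend, 4 residual and 2.61 prior degrees of freedom and 5 contrasts. Tests were two-sided, with Benjamini-Hochberg adjustment over all tested genes, and called means an adjusted p under 0.05. Folds are ratios of mean FPKM. The genes and lists were chosen with earlier results of these data known, so no p-value over a list is given. Full statistics go to 14 genes chosen by role and, per contrast, to the 4 largest called rises and falls, and other genes are given by levels or counts. Depth is known only in relative terms, so precision rests on the spread between the 2 libraries of each group. This spread was pooled over the 4 groups, so each gene has the same SE in all 4 comparisons of conditions. The SEs of comparisons without hypoxic DM therefore also hold the distance between its replicates. The fit was tested on simulated data in which each gene had the same spread in all groups, so unequal spread was not tested. In the real data the SD over genes of the log2 difference between replicates was 0.568 in hypoxic DM and 0.355 to 0.436 in the other conditions. Alternatives varied the pseudocount, filter, scaling, variance moderation (robust), replicate block and libraries fitted, and left out each library.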

Additional observations from a re-analysis of the deposited data

Results flagged for a closer look

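For 17 of the 30 tested genes the change with hypoxia was called in opposite directions in the 2 media, lower in GM and higher in DM, and the interaction was itself called by limma. The same fall and rise, with or without a called interaction, were seen in 7.38% of all genes tested. The interaction values of the 17 genes on the log2(FPKM + 1) scale, each the change with hypoxia in DM minus that in GM, were largest for Msmo1 (5.95), Insig1 (5.61), Fdps (4.93), Acat2 (4.74), Idi1 (4.42), Cyp51 (4.40) and Sqle (4.24). They were intermediate for Fdft1 (3.99), Stard4 (3.91), Mvd (3.82), Mvk (3.77), Srebf2 (3.54) and Nsdhl (3.24), and smallest for Srebf1 (2.68), Hsd17b7 (2.47), Pmvk (2.30) and Npc2 (1.31). Fitted changes understate ratios at levels near 1 FPKM, as for Stard4, Mvd and Hsd17b7 in hypoxic GM. An order by ratios of FPKM can therefore differ from this one. The fall in GM lost its call in some alternatives for Acat2, Mvk, Pmvk, Hsd17b7 and Npc2, and so did the rise in DM for Pmvk.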

How the results depend on the processing

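Results were recomputed under 16 alternatives. Of 124 changes of single genes, 118 could be refitted with a filter of 5 FPKM and 95 with only the libraries compared, which gives no interaction. Of the 114 called, 94 kept their direction and their call under each alternative run for them, and none reversed. The cause of the changes below was not tested. For the move to DM in normoxia, the 1 gene called higher became 2 after median-of-ratios or upper-quartile scaling, 4 when only the libraries compared were fitted and between 1 and 4 when a library was left out (4 without hypoxic DM replicate A or B). The 16 called lower ranged from 9 (without normoxic DM replicate A) to 17, with 10 without normoxic DM replicate B. For the move to DM in hypoxia, the 2 called lower became 1 with a filter of 5 FPKM, 1 with only the libraries compared and between 1 and 2 with a library left out (1 without hypoxic DM replicate A or either hypoxic GM library). For hypoxia in DM, the 3 called lower ranged from 1 to 2 with a library left out, and were 1 without normoxic DM replicate B or either hypoxic GM library.

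Medians of lists moved with the pseudocount of 0.1 and with scaling. For the oxygen-using enzymes, they were 0.0877 for the move to DM in normoxia and 4.01 for the interaction after median-of-ratios scaling, and 4.35 for the move to DM in hypoxia and -1.70 for hypoxia in GM with the pseudocount of 0.1. For the other enzymes the median for the move to DM in hypoxia was 3.38 with the pseudocount of 0.1. For the SREBP targets the median was 0.0385 for the move to DM in normoxia after median-of-ratios scaling, and with the pseudocount of 0.1 it was 3.43 for the move to DM in hypoxia, -1.72 for hypoxia in GM and 4.08 for the interaction. Leaving out a library gave 3.85 to 4.30 for the oxygen-using enzymes, 2.502 to 3.45 for the other enzymes and 2.51 to 3.45 for the SREBP targets for the move to DM in hypoxia. It gave 2.30 to 2.98, 1.26 to 2.23 and 1.67 to 2.41 for the same lists for hypoxia in DM, and 3.05 to 3.89 for the other enzymes and 3.34 to 4.17 for the SREBP targets for the interaction. The lowest of these came without hypoxic DM replicate B and the highest without replicate A.

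Medians of the LXR targets also moved. They are over 3 genes, but over 2 with a filter of 5 FPKM or, where normoxic GM is no part of the comparison, with only the libraries compared (without Abcg1) and over 4 without a filter (with Abca1). For the move to DM in normoxia they were -1.15 without a filter and -1.94 with the pseudocount of 0.1. For the move to DM in hypoxia they were 0.0127 with a filter of 5 FPKM and 0.0127 with only the libraries compared, and -0.93 with the pseudocount. For hypoxia in GM they were -0.92 after median-of-ratios scaling, -0.87 after upper-quartile scaling, -1.24 with the pseudocount and -1.15 to -0.94 with a library left out. For hypoxia in DM they were 0.34 with a filter of 5 FPKM and with only the libraries compared, -0.0601 without a filter and 0.28 with the pseudocount. For the interaction they were 1.43, 0.59 and 2.13 with the filter of 5 FPKM, without a filter and with the pseudocount.

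Uncalled changes that reversed were those of Cyp51 (0.10), Sc5d (0.078) and Insig2 (0.0291) for the move to DM in normoxia and of Insig2 (-0.0842) and Mylip (-0.12) for the interaction after median-of-ratios scaling, and of Mylip (-0.0331) for the interaction after upper-quartile scaling. With a library left out, Sc5d ran from -0.33 to 0.0124 for the move to DM in normoxia, Insig2 from -0.17 to 0.15 for the move to DM in hypoxia and Abcg1 from -0.0142 to 0.13 for hypoxia in DM.

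No pairing by the letters A and B was seen over all genes tested. The differences between A and B correlated at -0.166 to 0.042 across the 6 pairs of conditions. Such correlations cannot exclude an effect shared by a smaller set of genes. With the letter as a replicate block, 19 genes were called lower with hypoxia in GM where 20 were called without it (Hsd17b7, adjusted p = 0.0505), and the other 9 counts of called genes were unchanged. Over all genes the block changed the number called from 8241 to 7931 for the move to DM in normoxia, 5073 to 4453 for the move to DM in hypoxia, 5135 to 4634 for hypoxia in GM, 8075 to 7802 for hypoxia in DM and 6707 to 6273 for the interaction. With 2 libraries per condition and depth known only in relative terms, changes of genes under 1 FPKM are the least certain.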
